A study of Rattus norvegicus with 9 samples.

Results

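The genes described here are the ligands, receptors, extracellular antagonists and Smad proteins of the TGF-beta and BMP pathway, measured in cultured rat Sertoli cells of 3 ages. They were chosen by symbol alone, as names on the array that begin with Bmp, Bmpr, Bmper, Gdf, Tgfb, Tgfbr, Acvr, Smad, Grem, Chrd, Nog or Nbl1 in the form the pathway's genes have. In all, 52 of 35355 gene names on the array matched, through 66 of 41012 probes. Of the 52 genes, 42 were tested, because their probe stood clear of background on 2 or more of the 3 arrays of some age, among 22455 genes tested on the whole array. Among those that did not pass were Acvr1c, Bmp5, Bmp15, Chrdl1, Chrdl2, Mstn, Smad3, Smad9 and Tgfbrap1. For Acvr1c, Bmp5, Bmp15, Mstn, Smad3, Smad9 and Tgfbrap1, no array of any age was well above background.

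Sertoli cells line the tubules of the testis and nurse the germ cells. They came from testes of rats aged 5, 12 or 60 days and were cultured for 4 days in a defined medium with growth factors. All cultures, of every age, then received oFSH at 50 ng/ml and testosterone at 1e-07 M in pulses over 11 h, so no culture without hormones was compared. Each age was measured on 3 one-colour arrays, 1 per replicate number. The labels do not say whether replicates came from separate animals or cultures, and p-values then measure only the spread between these samples, which may be technical.

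TGF-beta and BMP ligands are secreted dimers that bring type I and type II receptor kinases together on the cell surface. The type I receptors phosphorylate Smad proteins, Smad2 and Smad3 for TGF-beta and activin and Smad1, Smad5 and Smad9 for BMPs, which enter the nucleus with Smad4 and change transcription, while Smad6 and Smad7 inhibit the route. Outside the cell, antagonists such as chordin, noggin and gremlin bind BMPs and keep them from their receptors. In the testis the family is known for roles in gonad development, in spermatogonia and in the Sertoli cell barrier.

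What an expression array reads is the RNA that binds a probe of 60 bases. Probes of ligands, a receptor and antagonists described below are shown as examples, because each value given for these genes rests on that stretch of RNA, with positions in the rn4 build as the files give them. Exons and untranslated regions are not stated, since rn4 gene models were not used here. Chrd and Nog are shown with both of their probes, since the probes of Nog did not behave alike.
Bmp3, chr14:12065804-12065863, minus strand: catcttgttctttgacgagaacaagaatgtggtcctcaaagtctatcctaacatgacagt
Bmp4, chr15:22283916-22283975, minus strand: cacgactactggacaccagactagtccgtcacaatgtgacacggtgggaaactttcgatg
Gdf10, chr16:9570485-9570544, plus strand: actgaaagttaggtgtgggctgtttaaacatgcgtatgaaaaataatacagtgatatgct
Tgfb2, chr13:102719362-102719421, minus strand: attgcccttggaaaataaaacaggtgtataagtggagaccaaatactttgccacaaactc
Tgfb3, chr6:110173856-110173915, minus strand: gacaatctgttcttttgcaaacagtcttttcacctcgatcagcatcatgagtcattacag
Acvrl1, chr7:139884383-139884442, plus strand: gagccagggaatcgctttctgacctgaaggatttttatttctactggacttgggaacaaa
Bmper, chr8:23024201-23024260, plus strand: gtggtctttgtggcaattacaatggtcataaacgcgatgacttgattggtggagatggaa
Chrd, probe of the higher mean, chr11:82401790-82401849, minus strand: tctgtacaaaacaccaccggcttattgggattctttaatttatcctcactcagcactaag
Chrd, the second probe, chr11:82402755-82402814, minus strand: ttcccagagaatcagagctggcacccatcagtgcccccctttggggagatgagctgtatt
Nog, probe of the higher mean, chr10:77690164-77690223, minus strand: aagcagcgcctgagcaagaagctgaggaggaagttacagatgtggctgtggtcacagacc
Nog, the second probe, chr10:77689645-77689704, minus strand: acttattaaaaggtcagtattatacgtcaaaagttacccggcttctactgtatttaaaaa

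The share of probes well above background was 49.1% to 63.0% per array, and no probe of these genes was saturated. Each age held 1 fixed place on the slides, and an effect of that place cannot be told apart from age. Markers of the labelled cell type were present at every age: of 19 tested Sertoli markers, 14 rose at 12 against 5 days and 14 rose at 60 against 5 days, with none lower in either, while at 60 against 12 days 6 rose and 2 fell. Their summed signal, relative to the 75th percentile of each array, ranged over 68.9 to 78.6 at 5 days, 366 to 407 at 12 days and 399 to 422 at 60 days. Markers of peritubular cells and fibroblasts moved the other way, and 0 of 17 rose while 7 fell at 12 against 5 days, 10 at 60 against 12 days and 13 at 60 against 5 days. The sum of that list was 904 to 1554 at 5 days, 530.1 to 820.0 at 12 days and 113 to 482 at 60 days. The peritubular marker Acta2 was not analysed here. Of 15 spermatocyte markers, 12 rose at 60 against 12 days, with sums of 2.56 to 3.08 at 5 days, 16.7 to 21.0 at 12 days and 100.4 to 187 at 60 days. Of 14 spermatid markers, 13 rose in the same contrast, with sums of 3.91 to 6.29 at 5 days, 4.77 to 6.75 at 12 days and 27.9 to 45.6 at 60 days. Of 9 tested endothelial markers, 6 fell and 1 rose at 60 against 5 days, and Pecam1, Tek and Tie1 were not tested. The endothelial sum was 6.29 to 11.5 at 5 days, 9.39 to 16.0 at 12 days and 1.38 to 3.80 at 60 days. Of 13 macrophage markers 10 fell at 12 against 5 days, with sums of 7.84 to 13.2 at 5 days, 2.52 to 2.98 at 12 days and 3.62 to 4.35 at 60 days, and Cd163, Ptprc and Itgam were not tested. At 60 against 12 days 5 macrophage markers rose and 0 fell. Of 9 tested Leydig markers 4 fell and 1 rose at 60 against 5 days, and of 6 tested spermatogonial markers 1 fell and 3 rose. The part that any of these markers' cells had in the results below was not tested, and in such bulk samples fewer cells of a type and less RNA per cell cannot be told apart.

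Among called members of the pathway, falls outnumbered rises in each contrast. At 60 against 5 days 17 of the 42 tested members fell and 4, Gdf9 among them, were called higher, 50.0% of them, where 35.4% of all tested genes were called in either direction, 18.1% lower and 17.3% higher. At 60 against 12 days 12 fell and 1, Gdf9, was called higher from values near the detection limit, where 25.3% of all genes were called, 13.1% lower and 12.3% higher. At 12 against 5 days 4 fell and 3 rose, where 12.5% of all genes were called, 6.32% lower and 6.13% higher. Over all 3 ages, the moderated F-test called 21 of the 42, beside 36.7% of all genes. The median log2 fold change of the 42 members was -1.0 at 60 against 5 days, with -0.09 over all genes. It was -0.66 at 60 against 12 days, with -0.16 over all genes, and -0.32 at 12 against 5 days, with 0.05 over all genes. The 3 contrasts share arrays. Here and below, "rose", "fell" and "called" mean an adjusted p under 0.05 by limma's moderated test with Benjamini-Hochberg adjustment over all 22455 genes. Second and further probes of a gene were tested in a separate limma fit of all 26599 probes that passed the filter, with adjustment over those probes. Each alternative setting was adjusted over the genes it tested. All 41 calls of members in the 3 contrasts had the same direction on all 3 slides. This adds no separate support, since the calls were made from these same arrays. The counts depended on which arrays were used, and leaving out a replicate number removed 1 array of each age. At 12 against 5 days 3 members were called without replicate 1, 1 without replicate 2 and 2 without replicate 3. Leaving out 1 array there gave 4 without 12-day replicate 1, 3 without 12-day replicate 2 and 4 without 5-day replicate 3. At 60 against 5 days 13 were called without replicate 2, and 17 to 23 without 1 array. Calls over all genes were also fewer without replicate 2, 1053 against 2796 at 12 against 5 days and 5045 against 7942 at 60 against 5 days.

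**Figure D1:**
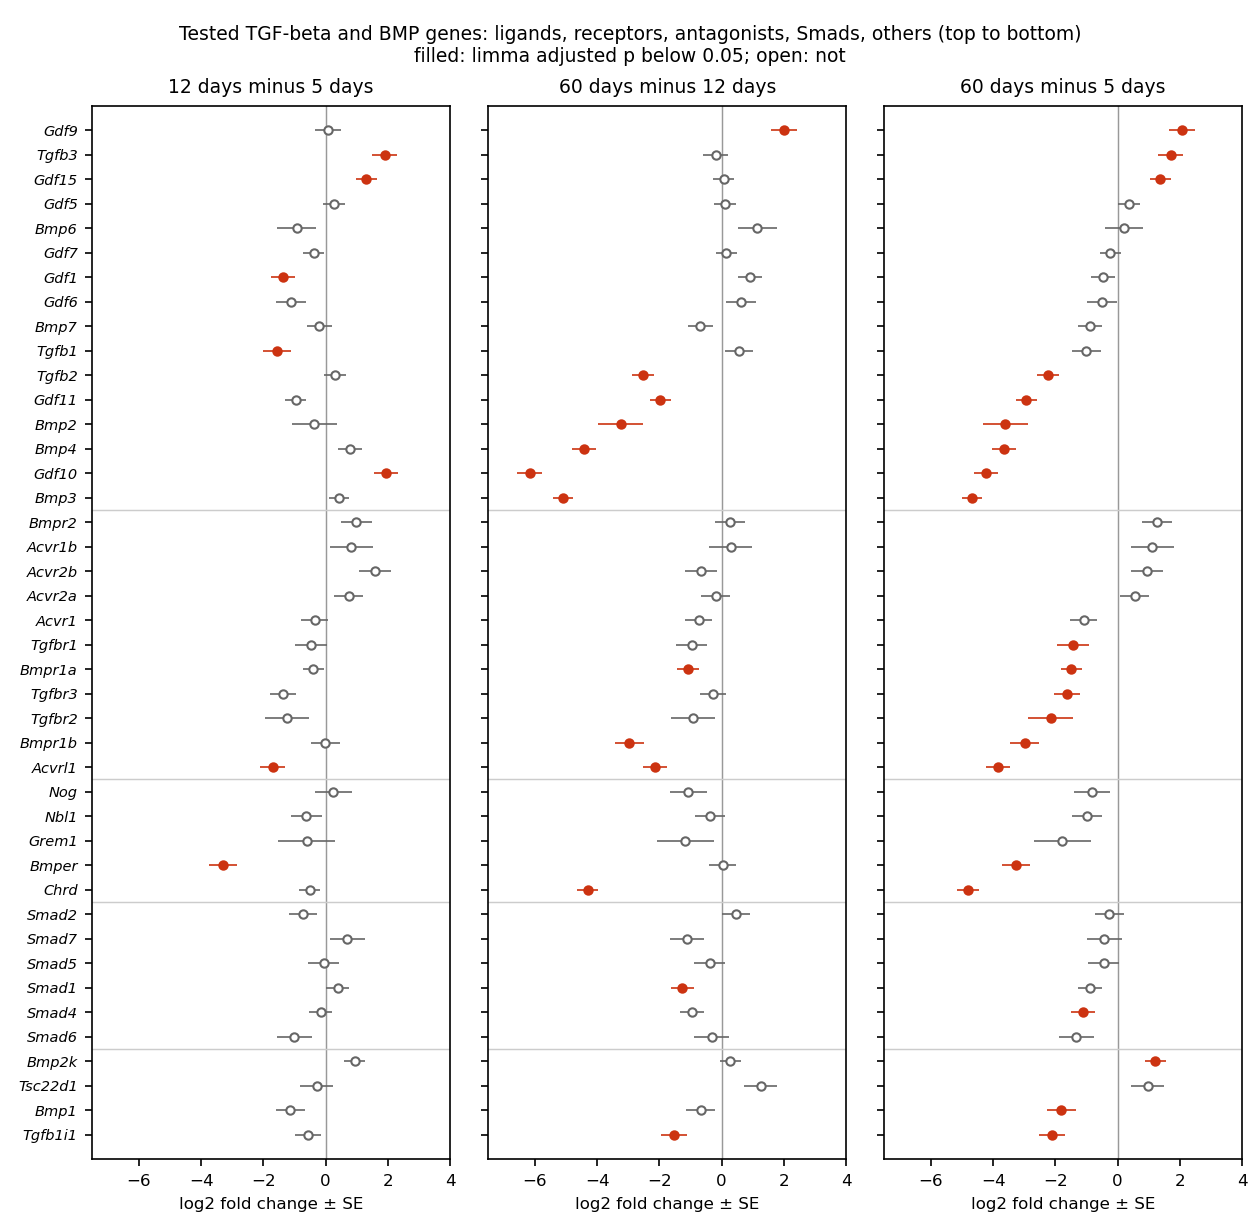
Log2 fold change with standard error (x axis) of each of the 42 tested TGF-beta and BMP genes (y axis, grouped by role) in the 3 contrasts, later age minus earlier age; filled points were called. Most filled points lie left of 0, with 12 lower and Gdf9 higher at 60 against 12 days, and 17 lower and 4 higher at 60 against 5 days.

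Levels and fold changes are relative to the 75th percentile of each array. Scaling to 6 spike-in RNAs in its place moved every log2 fold change by -1.32 at 12 against 5 days, by 0.96 at 60 against 12 days and by -0.36 at 60 against 5 days, and brought the median of all genes to -1.27, 0.80 and -0.45. On that scale 7 members fell and 0 rose at 12 against 5 days, 4 fell and Gdf9 was called higher at 60 against 12 days, and 12 fell and 0 rose at 60 against 5 days. Of all 22455 genes, that scale called 90 higher and 2200 lower at 12 against 5 days. It called 2614 higher and 381 lower at 60 against 12 days, and 1629 higher and 2456 lower at 60 against 5 days. The falls that were called on both scales at 60 against 12 days were those of Bmp3, Bmp4, Chrd and Gdf10. At 60 against 5 days they were those of Acvrl1, Bmp2, Bmp3, Bmp4, Bmper, Bmpr1b, Chrd, Gdf10, Gdf11, Tgfb1i1, Tgfb2 and Tgfbr2. At 12 against 5 days they were those of Acvrl1, Bmper, Gdf1 and Tgfb1. None of the rises of Bmp2k, Gdf10, Gdf15 and Tgfb3 was called on the spike-in scale, whereas the call of Gdf9 at 60 against 12 days was made on both. A background correction that adds an offset to faint signals (normexp), chosen for all arrays after seeing the data, made the changes of faint genes smaller: Bmp3 fell by 1.34 with it at 60 against 12 days, Bmp4 by 1.43 and Bmper at 12 against 5 days by 0.57 (log2), all still called. With that correction the calls of Bmpr1b, Gdf9, Tgfbr1, Tgfbr2 and Tgfbr3 were lost in each contrast where they had been made, as were those of Gdf15 and Tgfb1 at 12 against 5 days and of Bmp2 and Tgfb1i1 at 60 against 12 days. Folds given below as at least a size hold only for processed signals on the 75th percentile scale. The correction gave smaller changes than those bounds for Bmp3, Bmper, Bmpr1b and Gdf10. At 60 against 12 days they were -1.46 for Gdf10 and -0.29 for Bmpr1b (log2).

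Among the 16 tested ligands, 6 fell at 60 against 12 days and Gdf9 was called higher, beside 13.1% of all genes lower and 12.3% higher. At 12 against 5 days 2 ligands fell and 3 rose, beside 6.32% and 6.13% of all genes. At 60 against 5 days 6 fell and 3, Gdf9 among them, were called higher, beside 18.1% and 17.3%. The 6 that fell at 60 against 12 days were 3 BMPs, 2 growth differentiation factors and Tgfb2. Bmp3, a divergent BMP that opposes bone-forming BMPs, had levels of -0.87, -0.90 and -0.92 at 5 days, -0.51, -0.50 and -0.42 at 12 days, and -5.18, -5.45 and -6.09 at 60 days, on the log2 scale where 0 is the 75th percentile of the array. Every 60-day array was dark for Bmp3, below all 6 younger arrays and not well above background, and the arrays of each younger age lay close to one another. On this scale Bmp3 was therefore at least 17.5-fold lower at 60 than at 12 days (adjusted p = 4.97e-06, limma), and at least 13.0-fold lower than at 5 days (adjusted p = 2.07e-06). Gdf10, a close relative of Bmp3, had levels of -1.91, -2.49 and -3.08 at 5 days, -0.65, -0.51 and -0.47 at 12 days, and -6.96, -7.06 and -6.14 at 60 days. The 3 ages did not overlap for Gdf10, with 12 days highest and no 60-day array well above background. It rose by 1.95 ± 0.39 (SE, log2) at 12 against 5 days (adjusted p = 0.00767, limma) and was at least 16.6-fold lower at 60 than at 12 days (adjusted p = 4.97e-06) and at least 4.31-fold lower than at 5 days (adjusted p = 1.26e-05).

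Bmp4, which binds BMP type I receptors and acts early on germ cells in mice, had levels of -1.63, -1.04 and -0.71 at 5 days, -0.19, -0.85 and 0.02 at 12 days, and -5.24, -4.65 and -4.41 at 60 days. All 60-day arrays lay below all younger ones. Only replicate 2 was well above background at 60 days. Bmp4 fell by 4.43 ± 0.39 at 60 against 12 days (log2, SE; adjusted p = 2.28e-05, limma) and by 3.64 ± 0.39 at 60 against 5 days (adjusted p = 3.32e-05). Bmp2, the other classical BMP of this group, was more scattered, with levels of 1.09, -0.95 and -1.48 at 5 days, -0.18, -0.93 and -1.35 at 12 days, and -2.93, -3.99 and -5.28 at 60 days. Its 60-day arrays lay below all others, while the 5-day and 12-day arrays overlapped. Bmp2 fell by 3.24 ± 0.72 at 60 against 12 days (log2, SE; adjusted p = 0.00721, limma) and fell by 3.62 ± 0.72 at 60 against 5 days (adjusted p = 0.00248). The second Bmp2 probe was well above background on 0 arrays at 5 days, 1 at 12 days and 1 at 60 days, and was not tested.

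Tgfb2, 1 of the 3 TGF-beta isoforms, had levels of -0.59, 0.10 and -0.10 at 5 days, -0.12, 0.11 and 0.36 at 12 days, and -1.86, -2.74 and -2.66 at 60 days. The younger ages overlapped and the 60-day arrays were the lowest. Tgfb2 fell by 2.54 ± 0.36 at 60 against 12 days (log2, SE; adjusted p = 0.000435, limma) and fell by 2.23 ± 0.36 at 60 against 5 days (adjusted p = 0.000571). Gdf11, a relative of myostatin that signals through activin receptors, stood at 0.79, 0.48 and 0.99 at 5 days, -0.17, -0.22 and -0.24 at 12 days, and -1.85, -2.77 and -1.91 at 60 days. On this probe, that of the higher mean, its ages formed 3 separate steps downward. The second Gdf11 probe had -4.77, -4.00 and -3.49 at 5 days, -4.36, -5.18 and -4.68 at 12 days, and -4.77, -3.96 and -6.03 at 60 days, without such steps. It was well above background on 1 array at 5 days, 0 at 12 days and 1 at 60 days. That probe was not tested, and the alternative that averaged probes left it out. Gdf11 fell by 1.97 ± 0.34 at 60 against 12 days (adjusted p = 0.00168, limma) and by 2.93 ± 0.34 at 60 against 5 days (adjusted p = 6.35e-05), and the value at 12 against 5 days, -0.96, was not called (adjusted p = 0.105). Markers of peritubular cells and fibroblasts also fell at 60 against 12 days, 10 of 17, and a link to these ligands was not tested.
Without replicate 2, Bmp2 at 60 against 12 days was no longer called (limma adjusted p = 0.0569), nor was the rise of Gdf10 at 12 against 5 days without replicate 2 or without replicate 3 (adjusted p of at most 0.0977). The other falls of these 6 ligands were called whichever array or replicate was left out.

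**Figure D2:**
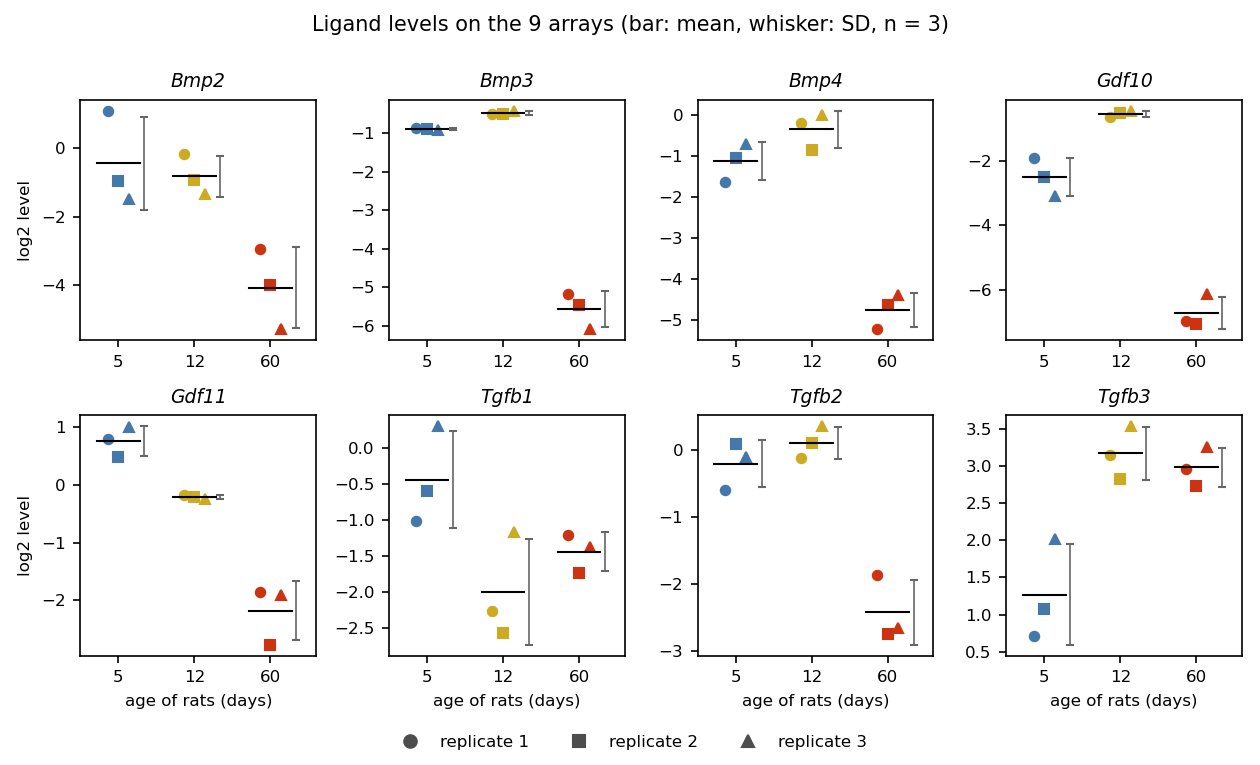
Levels of 8 ligands (y axis, log2 of processed signal minus the 75th percentile of the array) on each of the 9 arrays by age of the rats in days (x axis); shapes are replicate numbers, black bars the mean of 3 arrays and whiskers the SD. For Bmp2, Bmp3, Bmp4, Gdf10, Gdf11 and Tgfb2 all 60-day arrays lie below all younger ones, whereas for Tgfb3 the 5-day arrays are the lowest; at 60 days Bmp3 and Gdf10 were not well above background.

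Tgfb3 was higher at 60 than at 5 days, where Tgfb2 was lower. Its levels were 0.71, 1.08 and 2.02 at 5 days, 3.15, 2.82 and 3.53 at 12 days, and 2.96, 2.73 and 3.25 at 60 days. The 5-day arrays were below all others and the 2 later ages overlapped. Tgfb3, a TGF-beta isoform studied for its effect on the tight junctions of Sertoli cells, rose by 1.90 ± 0.40 at 12 against 5 days (log2, SE; adjusted p = 0.00963, limma) and was 1.71 ± 0.40 higher at 60 than at 5 days (adjusted p = 0.00606), with no call at 60 against 12 days (-0.19, adjusted p = 0.78). Gdf15, a cytokine induced by cell stress, had levels of -2.91, -2.41 and -2.89 at 5 days, -1.62, -1.58 and -1.09 at 12 days, and -1.15, -1.13 and -1.78 at 60 days. Again the 5-day arrays were the low ones, and the rise was 1.31 ± 0.34 at 12 against 5 days (limma adjusted p = 0.028) and 1.38 ± 0.34 at 60 against 5 days (adjusted p = 0.00824), while on the spike-in scale the value at 12 against 5 days turned to -0.015 (adjusted p = 0.99). Gdf9, best known from oocytes, was near background throughout, at -6.29, -6.23 and -6.00 at 5 days, -6.40, -6.68 and -5.23 at 12 days, and -4.57, -4.07 and -3.64 at 60 days. It passed the filter only through 2 arrays of 60 days, and no younger array was well above background. The fit called it higher against both younger ages (limma adjusted p = 0.00537 against 12 days and 0.00285 against 5 days), but the detection limit of the younger arrays lay above its mean 60-day signal, so these calls do not establish a rise and no size is given.
The rises of Tgfb3 were not called without replicate 1 or without replicate 2 (adjusted p of at most 0.102), and that of Gdf15 at 60 against 5 days was lost under the same omissions (at most 0.0742). That of Gdf15 at 12 against 5 days was lost in 8 of the 12 settings that left out 1 array or 1 replicate (at most 0.191), and was called only without an array of 60 days or 5-day replicate 2.

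Tgfb1 and Gdf1 were called at 12 against 5 days and in no other contrast. Tgfb1, the most studied isoform, had levels of -2.26, -2.57 and -1.17 at 12 days against -1.02, -0.60 and 0.30 at 5 days, and fell by 1.56 ± 0.46 (log2, SE; adjusted p = 0.0493, limma), with -1.21, -1.74 and -1.38 at 60 days. With the replicate number as a block, Tgfb1 also fell at 60 against 5 days (adjusted p = 0.0422, limma). Gdf1 had 4.08, 4.22 and 3.36 at 12 days against 5.66, 5.30 and 4.80 at 5 days, and fell by 1.37 ± 0.38 (limma adjusted p = 0.0411), with 4.47, 5.26 and 4.65 at 60 days. The files of replicate 3 name the Gdf1 probes after Lass1, a ceramide synthase gene, so which transcript they read is uncertain, and the second Gdf1 probe was not called (adjusted p = 0.764). The fall of Tgfb1 was called only without 5-day replicate 1 or 12-day replicate 3 and was lost in the other 10 settings (limma adjusted p of at most 0.285). That of Gdf1 was called only without 60-day replicate 1 or 2 or 5-day replicate 3 and was lost in the other 9 (at most 0.172).
The other tested ligands were not called in any contrast or in the F-test. They were Bmp6, which ranged from -3.61 to -0.49 over the 9 arrays, Bmp7, from -2.55 to -0.95, Gdf5, from -4.52 to -3.42, Gdf6, from -5.14 to -2.48, and Gdf7, from -4.36 to -3.29. Bmp6 and Bmp7 are BMPs that act through BMP and activin type I receptors, and Gdf5, Gdf6 and Gdf7 are known from joints and skeleton. With the replicate number as a block, Bmp7 fell by 0.88 ± 0.31 at 60 against 5 days (limma adjusted p = 0.0411).

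The 11 tested receptors either fell or had no call at 60 against 5 days, 6 lower and 0 higher. At 60 against 12 days 3 fell, and at 12 against 5 days 1 did. Of all genes, 18.1% were lower and 17.3% higher at 60 against 5 days. The shares lower were 13.1% at 60 against 12 days and 6.32% at 12 against 5 days. The 6 receptors lower at 60 against 5 days were the type I receptors Acvrl1, Bmpr1a, Bmpr1b and Tgfbr1, the type II receptor Tgfbr2 and the co-receptor Tgfbr3. Acvrl1, a type I receptor for BMP9 and BMP10 best known from endothelium, was the only member to fall in all 3 contrasts. Its levels were 2.69, 2.51 and 3.23 at 5 days, 1.25, 0.74 and 1.33 at 12 days, and -0.31, -1.50 and -1.31 at 60 days, in 3 steps that did not overlap. Acvrl1 fell by 1.70 ± 0.40 at 12 against 5 days (log2, SE; adjusted p = 0.017, limma), fell by 2.15 ± 0.40 at 60 against 12 days (adjusted p = 0.00242) and fell by 3.85 ± 0.40 at 60 against 5 days (adjusted p = 2.62e-05). Of 9 endothelial markers, 3 fell and 0 rose at 12 against 5 days, although the summed signal of the list was 9.39 to 16.0 at 12 days against 6.29 to 11.5 at 5 days, and 4 fell and 1 rose at 60 against 12 days. A link of Acvrl1 to these cells was not tested.

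The BMP type I receptors Bmpr1a and Bmpr1b were lower at 60 days than at both younger ages. Bmpr1a had levels of 3.91, 3.45 and 3.42 at 5 days, 2.74, 3.42 and 3.43 at 12 days, and 1.88, 1.91 and 2.53 at 60 days, the last below all others. It fell by 1.09 ± 0.35 at 60 against 12 days (log2, SE; adjusted p = 0.0411, limma) and by 1.48 ± 0.35 at 60 against 5 days (adjusted p = 0.00641). The second Bmpr1a probe gave -1.43 ± 0.58 at 60 against 5 days and was not called (adjusted p = 0.0836). At 60 against 12 days it gave -0.70 ± 0.58 and was not called either (adjusted p = 0.435). The mean of the Bmpr1a probes was not called in that contrast (limma adjusted p = 0.135). Bmpr1b stood at -3.51, -3.15 and -2.49 at 5 days, -3.27, -2.67 and -3.25 at 12 days, and -6.91, -6.04 and -5.17 at 60 days, when no array was well above background. It was at least 2.91-fold lower at 60 than at 12 days (limma adjusted p = 0.000866) and at least 2.92-fold lower than at 5 days (adjusted p = 0.000484).

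The receptors of TGF-beta itself were called at 60 against 5 days and in no other contrast. Tgfbr1, the type I receptor, had -3.12, -3.23 and -3.12 at 60 days against -2.26, -0.75 and -2.18 at 5 days, and fell by 1.43 ± 0.50 (log2, SE; adjusted p = 0.0477, limma), with -2.98, -1.31 and -2.31 at 12 days. The other 2 Tgfbr1 probes were not called (adjusted p = 0.225 and 0.96). Tgfbr2, the type II receptor, had -5.97, -2.59 and -4.93 at 60 days against -3.09, -2.15 and -1.80 at 5 days, and fell by 2.15 ± 0.72 (adjusted p = 0.0373), although the ages overlapped through replicate 2, and only 1 array of 60 days was well above background. Betaglycan, the co-receptor encoded by Tgfbr3 that presents TGF-beta2 and inhibin, had -3.55, -4.25 and -4.94 at 60 days against -2.71, -2.98 and -2.16 at 5 days, and fell by 1.63 ± 0.42 (adjusted p = 0.011), with -3.56, -4.05 and -4.33 at 12 days. With the replicate number as a block, Tgfbr3 also fell at 12 against 5 days, by 1.36 ± 0.38 (adjusted p = 0.037).
Without replicate 2 the falls of Bmpr1a and Tgfbr3 at 60 against 5 days were not called (limma adjusted p of at most 0.112, Tgfbr3 also without replicate 3). Acvrl1 at 12 against 5 days was lost without replicate 2, replicate 3, 12-day replicate 2 alone or 5-day replicate 3 alone (at most 0.121). The fall of Bmpr1a at 60 against 12 days was called only without 5-day or 12-day replicate 1 or 60-day replicate 3 (at most 0.3 in the other 9 settings). That of Tgfbr1 was called only without 5-day or 12-day replicate 1, 12-day replicate 2 or 5-day replicate 3 (at most 0.212 in the other 8). That of Tgfbr2 was lost without replicate 1, without replicate 3, and without 12-day or 60-day replicate 1, 5-day replicate 2, or 5-day or 60-day replicate 3 (at most 0.223).

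**Figure D3:**
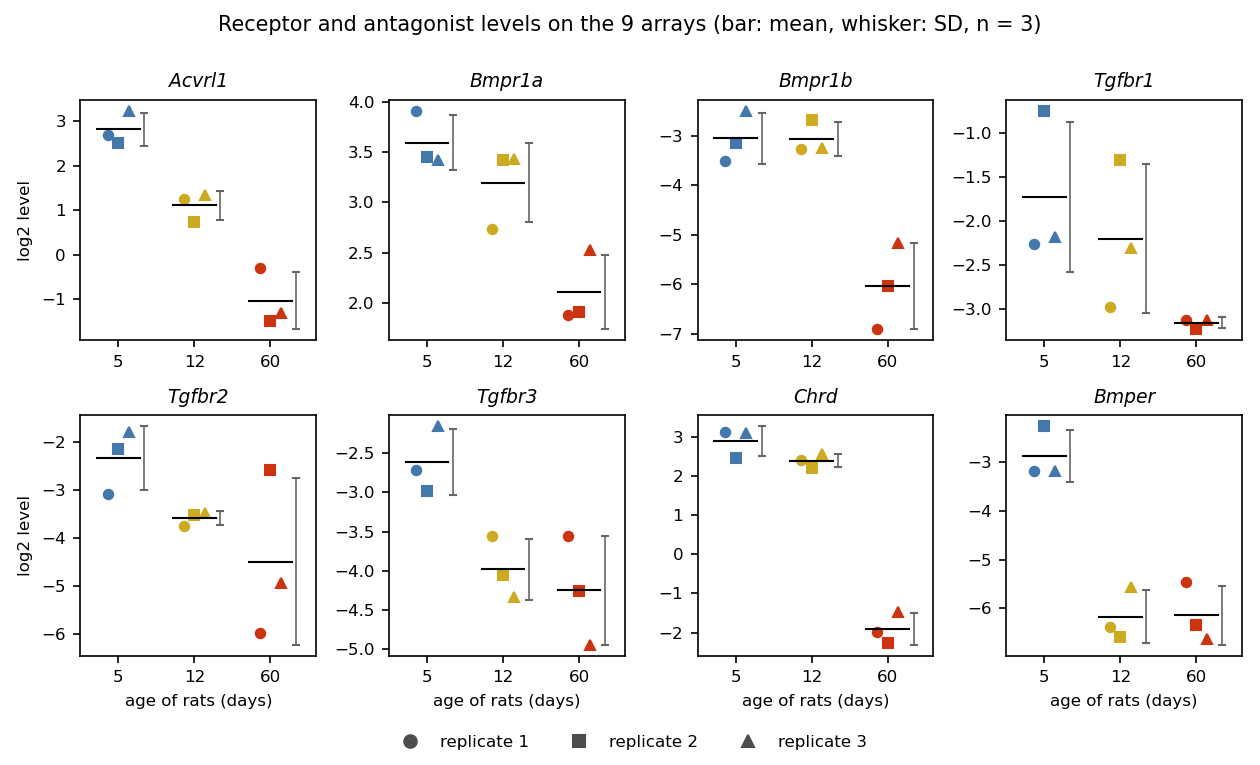
Levels of 6 receptors and 2 antagonists (y axis, log2 of processed signal minus the 75th percentile of the array) on each of the 9 arrays by age of the rats in days (x axis); shapes are replicate numbers, black bars the mean of 3 arrays and whiskers the SD. Acvrl1 steps down at each age, Chrd is low on all 60-day arrays and Bmper is high only on the 5-day arrays.

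The remaining receptors were not called. They were the type II receptors of activins and BMPs, Acvr2a, from -4.92 to -2.70 over the 9 arrays, Acvr2b, from -3.62 to -0.62, and Bmpr2, from -2.18 to 0.48, and the type I receptors Acvr1, from -3.35 to -1.47, and Acvr1b, from -6.24 to -3.28. The type II receptors Acvr2b and Bmpr2 had positive log2 fold changes at 60 against 5 days, 0.93 ± 0.51 and 1.26 ± 0.49 (SE; adjusted p = 0.187 and 0.0687, limma). With the replicate number as a block, Acvr2b rose by 1.58 ± 0.41 at 12 against 5 days (adjusted p = 0.0255) and Acvr1 fell by 1.09 ± 0.39 at 60 against 5 days (adjusted p = 0.0491).

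Among the 5 tested antagonists, Chrd and Bmper fell, at different ages. Of these 5, 1 fell at 12 against 5 days, 1 at 60 against 12 days and 2 at 60 against 5 days. The shares of all genes lower were 6.32%, 13.1% and 18.1%. Chordin, the product of Chrd, binds BMP2, BMP4 and BMP7. Its probe of the higher mean had levels of 3.13, 2.47 and 3.11 at 5 days, 2.41, 2.22 and 2.56 at 12 days, and -1.99, -2.27 and -1.47 at 60 days. The younger ages overlapped, and the 60-day arrays lay far below them. Chrd fell by 4.30 ± 0.34 at 60 against 12 days (log2, SE; adjusted p = 1.32e-05, limma) and by 4.81 ± 0.34 at 60 against 5 days (adjusted p = 2.47e-06). The second Chrd probe fell by 2.84 ± 0.38 at 60 against 12 days (adjusted p = 0.000315) and fell by 3.22 ± 0.38 at 60 against 5 days (adjusted p = 6.52e-05). Bmper, a secreted modulator of BMP4 that can block or promote its action, had levels of -3.18, -2.26 and -3.17 at 5 days, -6.39, -6.58 and -5.56 at 12 days, and -5.46, -6.34 and -6.63 at 60 days. Only the 5-day arrays were well above background, so Bmper was at least 2.21-fold lower at 12 than at 5 days (adjusted p = 0.000772) and at least 3.32-fold lower at 60 than at 5 days (adjusted p = 0.000175). Bmper passed the filter only through the 5-day arrays, and the filter thus favoured a fall from that age. Chrd and Bmper were called whichever array or replicate was left out. With normexp on replicates 1 and 3 alone, Bmper was not called at 12 against 5 days (-0.36, limma adjusted p = 0.221). It was not called there at 60 against 5 days either (-0.19, adjusted p = 0.35). Peritubular and fibroblast markers fell in the same contrasts as Bmper or Chrd, 7 of 17 at 12 against 5 days and 10 at 60 against 12 days. Of 13 macrophage markers, 10 fell at 12 against 5 days, and 5 rose and 0 fell at 60 against 12 days. A link of Chrd or Bmper to any of these cells was not tested.

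Noggin, another BMP antagonist, gave an answer that depended on the probe. The Nog probe of the higher mean, near background on 5 of 9 arrays, had -3.82, -4.78 and -6.51 at 60 days against -3.71, -3.86 and -4.34 at 12 days and was not called (-1.07, adjusted p = 0.22, limma). The second Nog probe had -6.99, -6.76 and -5.76 at 60 days against -3.46, -3.43 and -2.42 at 12 days and fell, by at least 2.82-fold (adjusted p = 0.000275). Its 5-day levels were -4.10, -3.71 and -3.33, and it was at least 1.85-fold lower at 60 than at 5 days (adjusted p = 0.000537). Gremlin 1, the product of Grem1, was low on 2 of the 3 arrays of 60 days only, with -5.54, -5.57 and -1.75 at 60 days against -3.86, -3.52 and -1.97 at 12 days and -2.57, -3.0 and -1.96 at 5 days. Replicate 3 stood apart and Grem1 was not called (-1.78 at 60 against 5 days, adjusted p = 0.16), but with the replicate number as a block it fell (adjusted p = 0.0262). Nbl1, the DAN protein whose family holds the gremlins, ranged from 1.33 to 3.54 with no call, and fell at 60 against 5 days with the block (adjusted p = 0.0322).

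Of 6 tested Smad genes, 1 fell at 60 against 12 days, beside 25.3% of all genes called, 1 fell at 60 against 5 days, beside 35.4%, and 0 were called at 12 against 5 days by limma, beside 12.5%, where 0 had an unadjusted p under 0.05. Smad1, which carries BMP signals, had levels of 1.53, 1.41 and 1.10 at 60 days against 2.83, 2.56 and 2.44 at 12 days, with no overlap, and fell by 1.27 ± 0.37 (log2, SE; adjusted p = 0.0292, limma). Its 5-day levels were 1.49, 2.65 and 2.55, and the second Smad1 probe was not called (-0.90, adjusted p = 0.251). Smad4, the partner common to both branches, had -0.66, -0.40 and -0.09 at 60 days against 0.66, 1.08 and 0.44 at 5 days, and fell by 1.11 ± 0.38 (adjusted p = 0.0429). The call of Smad1 was lost without replicate 2, without replicate 3, without any single 12-day array and without 60-day replicate 2 or 3 (limma adjusted p of at most 0.141). That of Smad4 was kept only without 12-day replicate 1 or 2 (at most 0.223 in the other 10 settings).
Smad2, which carries TGF-beta and activin signals, ranged from -1.40 to 0.57 over the 9 arrays, and Smad5 from -2.56 to -0.61. The inhibitory Smads ranged from -4.79 to -2.13 for Smad6 and from -1.03 to 1.49 for Smad7. None of these 4 was called. With the replicate number as a block, Smad6 fell by 1.33 ± 0.36 at 60 against 5 days (adjusted p = 0.015), Smad7 by 1.11 ± 0.28 at 60 against 12 days (adjusted p = 0.0143) and Smad4 by 0.94 ± 0.32 at 60 against 12 days (adjusted p = 0.0477).

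The other 4 tested genes match the naming rule without being a ligand, receptor, antagonist or Smad. Tgfb1i1 encodes Hic-5, an adaptor of focal adhesions, and had levels of 0.97, 1.82 and 2.65 at 5 days, 1.19, 0.92 and 1.61 at 12 days, and -0.32, -0.26 and -0.28 at 60 days. The 60-day arrays were close together and below all others. Tgfb1i1 fell by 1.53 ± 0.42 at 60 against 12 days (log2, SE; adjusted p = 0.022, limma) and fell by 2.1 ± 0.42 at 60 against 5 days (adjusted p = 0.00262). Bmp1, a protease that matures procollagens and cleaves chordin, had 4.78, 3.77 and 3.13 at 60 days against 6.46, 5.41 and 5.23 at 5 days, and fell by 1.81 ± 0.47 (adjusted p = 0.011), but neither of its other 2 probes was called (adjusted p = 0.163 and 0.767). Bmp2k, a kinase first described as induced by BMP2 in mouse cells, was -2.01, -1.50 and -1.47 at 60 days against -2.81, -2.64 and -3.15 at 5 days, a rise of 1.21 ± 0.34 (adjusted p = 0.0172). Tsc22d1, a transcription factor induced by TGF-beta in mouse cells, ranged from 2.55 to 5.28 and was not called, and with the block it rose by 1.26 ± 0.36 at 60 against 12 days (adjusted p = 0.0246).
Without replicate 2 Bmp1 was not called (limma adjusted p = 0.0739). The fall of Tgfb1i1 at 60 against 12 days was lost without replicate 2 or 3, 12-day replicate 1 or 3, or 60-day replicate 2 or 3 (at most 0.104). The rise of Bmp2k was lost without replicate 2 or 3, 60-day replicate 2 or 3, or 5-day replicate 3 (at most 0.141).

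The promoters of the 4 members that fell furthest at 60 against 12 days, Bmp3, Bmp4, Chrd and Gdf10, are shown with motifs that Smad proteins are known to bind. RefSeq promoters of the GRCr8 build, from 250 bases before to 50 after the start of the gene, matched 40 of the 52 members. Capitals mark CAGAC or GTCTG, the same motif on either strand, and GGCGCC, which reads the same on both strands; the motifs share no overlap in the sequences shown.
Bmp3, chr14:11041233-11041532, minus strand: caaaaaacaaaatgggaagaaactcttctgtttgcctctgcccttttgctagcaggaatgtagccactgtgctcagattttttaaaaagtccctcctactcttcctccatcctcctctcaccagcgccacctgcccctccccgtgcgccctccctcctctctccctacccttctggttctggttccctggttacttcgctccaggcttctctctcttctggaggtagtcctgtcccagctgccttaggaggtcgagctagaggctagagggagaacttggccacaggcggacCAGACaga
Bmp4, chr15:22101884-22102183, minus strand: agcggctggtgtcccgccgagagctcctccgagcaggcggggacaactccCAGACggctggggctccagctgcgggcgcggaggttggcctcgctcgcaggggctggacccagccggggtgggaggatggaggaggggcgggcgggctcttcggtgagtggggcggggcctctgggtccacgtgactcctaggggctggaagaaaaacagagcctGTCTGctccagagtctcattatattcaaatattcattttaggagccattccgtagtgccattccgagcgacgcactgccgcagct
Chrd, chr11:93685051-93685350, minus strand: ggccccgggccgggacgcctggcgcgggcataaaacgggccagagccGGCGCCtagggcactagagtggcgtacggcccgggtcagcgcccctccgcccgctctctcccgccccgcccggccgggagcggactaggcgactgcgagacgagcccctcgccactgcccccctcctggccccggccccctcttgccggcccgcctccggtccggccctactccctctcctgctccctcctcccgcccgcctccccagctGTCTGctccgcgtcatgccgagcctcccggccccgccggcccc
Gdf10, chr16:9243262-9243561, plus strand: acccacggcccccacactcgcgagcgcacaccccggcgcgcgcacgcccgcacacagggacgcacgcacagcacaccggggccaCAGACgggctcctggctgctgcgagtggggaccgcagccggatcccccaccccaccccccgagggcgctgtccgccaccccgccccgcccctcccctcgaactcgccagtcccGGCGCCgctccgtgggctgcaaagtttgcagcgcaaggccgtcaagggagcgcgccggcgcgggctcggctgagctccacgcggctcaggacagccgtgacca
CAGAC or its reverse stood once in the promoters of Bmp3, Chrd and Gdf10 and at 2 places in that of Bmp4, while GGCGCC stood once each in those of Chrd and Gdf10. Over the matched members, 13 of 40 promoters held CAGAC, 32.5%, where 49.8% of 27457 promoters of the same length did. GGCGCC was in 17 of 40, 42.5%, beside 11.7% of all promoters. The share of G or C varied between members, 54.7% for Bmp3 and 78.7% for Chrd, and was not compared with that of all promoters. A match describes letters in this window and is no evidence of binding.

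Among other genes of the pathway, falls also outnumbered rises in each contrast. Of 84 further genes listed by role, 67 were tested. At 60 against 5 days 28 fell and 6 rose, 50.7% of them, beside 35.4% of all genes. At 60 against 12 days 27 fell and 4 rose, 46.3%, beside 25.3%, and at 12 against 5 days 14 fell and 5 rose, 28.4%, beside 12.5%. At 60 against 12 days 14 of 21 tested response genes fell with 1 higher, 8 of 15 extracellular modulators fell with 2 higher, 2 of 6 receptor level regulators fell with 0 higher, and 3 of 25 intracellular regulators fell with 1 higher. The differences between these shares were not tested.

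Ltbp3 and Ltbp4, latent TGF-beta binding proteins that hold TGF-beta in the matrix, fell at 60 days. Ltbp4 had levels of 2.31, 2.82 and 3.49 at 5 days, 2.34, 1.32 and 2.26 at 12 days, and -2.31, -3.02 and -3.83 at 60 days, and fell by 5.02 ± 0.48 at 60 against 12 days (log2, SE; adjusted p = 4.01e-05, limma). Ltbp3 fell by 3.73 ± 0.45 (adjusted p = 0.000167) and fibrillin 1, the microfibril protein of Fbn1 that anchors them, by 4.28 ± 0.85 (adjusted p = 0.00364). Sostdc1, a secreted BMP and WNT antagonist, had -3.52, -3.05 and -5.13 at 12 days against 1.93, 1.60 and 1.49 at 5 days and fell by 5.58 ± 0.65 (adjusted p = 0.000351). It was at least 75.8-fold lower at 60 than at 5 days (adjusted p = 7.4e-06). Itgb6, part of an integrin that activates latent TGF-beta, was at least 21.7-fold lower at 60 than at 5 days (adjusted p = 1.79e-06). Rises were fewer: the activin-binding Fstl3 had 4.71, 4.91 and 4.84 at 60 days against 0.52, 1.52 and 2.27 at 5 days, 3.38 ± 0.47 higher (adjusted p = 0.0002), and the protease Htra1 was 3.17 ± 0.37 higher at 60 than at 12 days (adjusted p = 0.000139) after a fall of 1.38 ± 0.37 at 12 against 5 days (adjusted p = 0.0346).

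At the receptor, Amhr2, the type II receptor of anti-Muellerian hormone, rose by 2.27 ± 0.37 at 12 against 5 days (log2, SE; adjusted p = 0.00228, limma), and the co-receptor endoglin, from Eng, fell by 2.80 ± 0.60 at 60 against 12 days (adjusted p = 0.00572). Eng is also on the endothelial list. Inside the cell, Ski, a Smad co-repressor, had 3.78, 3.58 and 3.75 at 60 days against 5.74, 5.80 and 5.97 at 12 days and fell by 2.13 ± 0.30 (adjusted p = 0.000454). Pmepa1, a feedback inhibitor that TGF-beta induces, fell by 2.52 ± 0.48 (adjusted p = 0.00269), and Nedd4l, a ubiquitin ligase for Smads, rose by 1.86 ± 0.35 at 60 against 12 days (adjusted p = 0.00246). Zfp423, a BMP-responsive zinc finger cofactor of Smads, and Runx1 fell at 12 against 5 days, by 2.95 ± 0.35 and 1.93 ± 0.33 (adjusted p = 0.000399 and 0.00347).

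Among genes known to respond to the pathway, the Id genes, direct BMP targets that block bHLH factors, did not move as one. Id3 had levels of 5.73, 5.06 and 4.24 at 5 days, 2.58, 2.6 and 1.96 at 12 days, and 1.07, 0.14 and -0.42 at 60 days. It stepped down at each age without overlap and fell by 4.75 ± 0.48 at 60 against 5 days (log2, SE; adjusted p = 2.35e-05, limma). Id1 had 2.82, 1.95 and 2.36 at 5 days, 0.87, 0.80 and 1.64 at 12 days, and -1.27, -1.62 and -1.0 at 60 days, and fell by 3.68 ± 0.37 over the same span (adjusted p = 2.31e-05). Id2 fell by 1.58 ± 0.39 (adjusted p = 0.00845). Id4 was the exception, with 2.45, 2.31 and 2.44 at 5 days, 3.20, 3.66 and 4.18 at 12 days, and 4.42, 4.02 and 4.81 at 60 days, and was 2.02 ± 0.36 higher at 60 than at 5 days (adjusted p = 0.00108), though on the spike-in scale its value at 12 against 5 days turned to -0.036 (adjusted p = 0.975). Msx1, a homeobox target of BMPs, fell by 5.20 ± 0.49 at 60 against 12 days (adjusted p = 3.34e-05). The TGF-beta-induced Tgfbi fell at both steps, by 2.20 ± 0.34 and 2.06 ± 0.34 (adjusted p = 0.00191 and 0.00126).
Of the cell cycle inhibitors on this list, Cdkn1a rose by 1.85 ± 0.46 at 12 against 5 days (adjusted p = 0.0228), and Cdkn2b fell by 3.20 ± 0.38 at 12 against 5 days (adjusted p = 0.000406) and rose by 1.49 ± 0.38 at 60 against 12 days (adjusted p = 0.0154). The matrix gene Col3a1 fell by 3.76 ± 0.52 at 60 against 12 days (adjusted p = 0.00039, limma), and Fn1, for fibronectin, fell by 3.24 ± 0.55 (adjusted p = 0.00137). Col1a1, Col3a1 and Tagln also stand on the peritubular and fibroblast list.
When arrays were left out, 6 of the 19 calls of these further genes at 12 against 5 days held in every such setting, as did 18 of 31 at 60 against 12 days and 27 of 34 at 60 against 5 days. Among the values given here, Nedd4l and Runx1 were not called without replicate 2 (limma adjusted p = 0.073 and 0.0733), nor Id2 without replicate 1 or 2 (at most 0.0653). Cdkn2b at 60 against 12 days was lost without replicate 1 or 3, 60-day replicate 2 or 12-day replicate 3 (at most 0.13). Cdkn1a was lost without any 1 of the replicates, 5-day replicate 1 or 2 or 12-day replicate 3 (at most 0.14), and Htra1 at 12 against 5 days without any 1 of the replicates or of 5 single arrays (at most 0.175). On the spike-in scale 14, 9 and 23 of the calls were kept in the 3 contrasts. Of the values given here, those of Amhr2 and Cdkn1a at 12 against 5 days, of Eng, Ski, Pmepa1, Fn1 and Tgfbi at 60 against 12 days and of Id2 and Id4 at 60 against 5 days were not called on that scale. Under every alternative 4 of 19, 4 of 31 and 18 of 34 calls were kept. Htra1 at 12 against 5 days and Eng at 60 against 12 days were lost with both forms of normexp. Normexp on replicates 1 and 3 alone also lost Amhr2, Cdkn1a and Zfp423 at 12 against 5 days and Id2 at 60 against 5 days. It also lost Ltbp3, Fbn1, Fn1, Ski, Pmepa1 and Cdkn2b at 60 against 12 days.

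**Figure D4:**
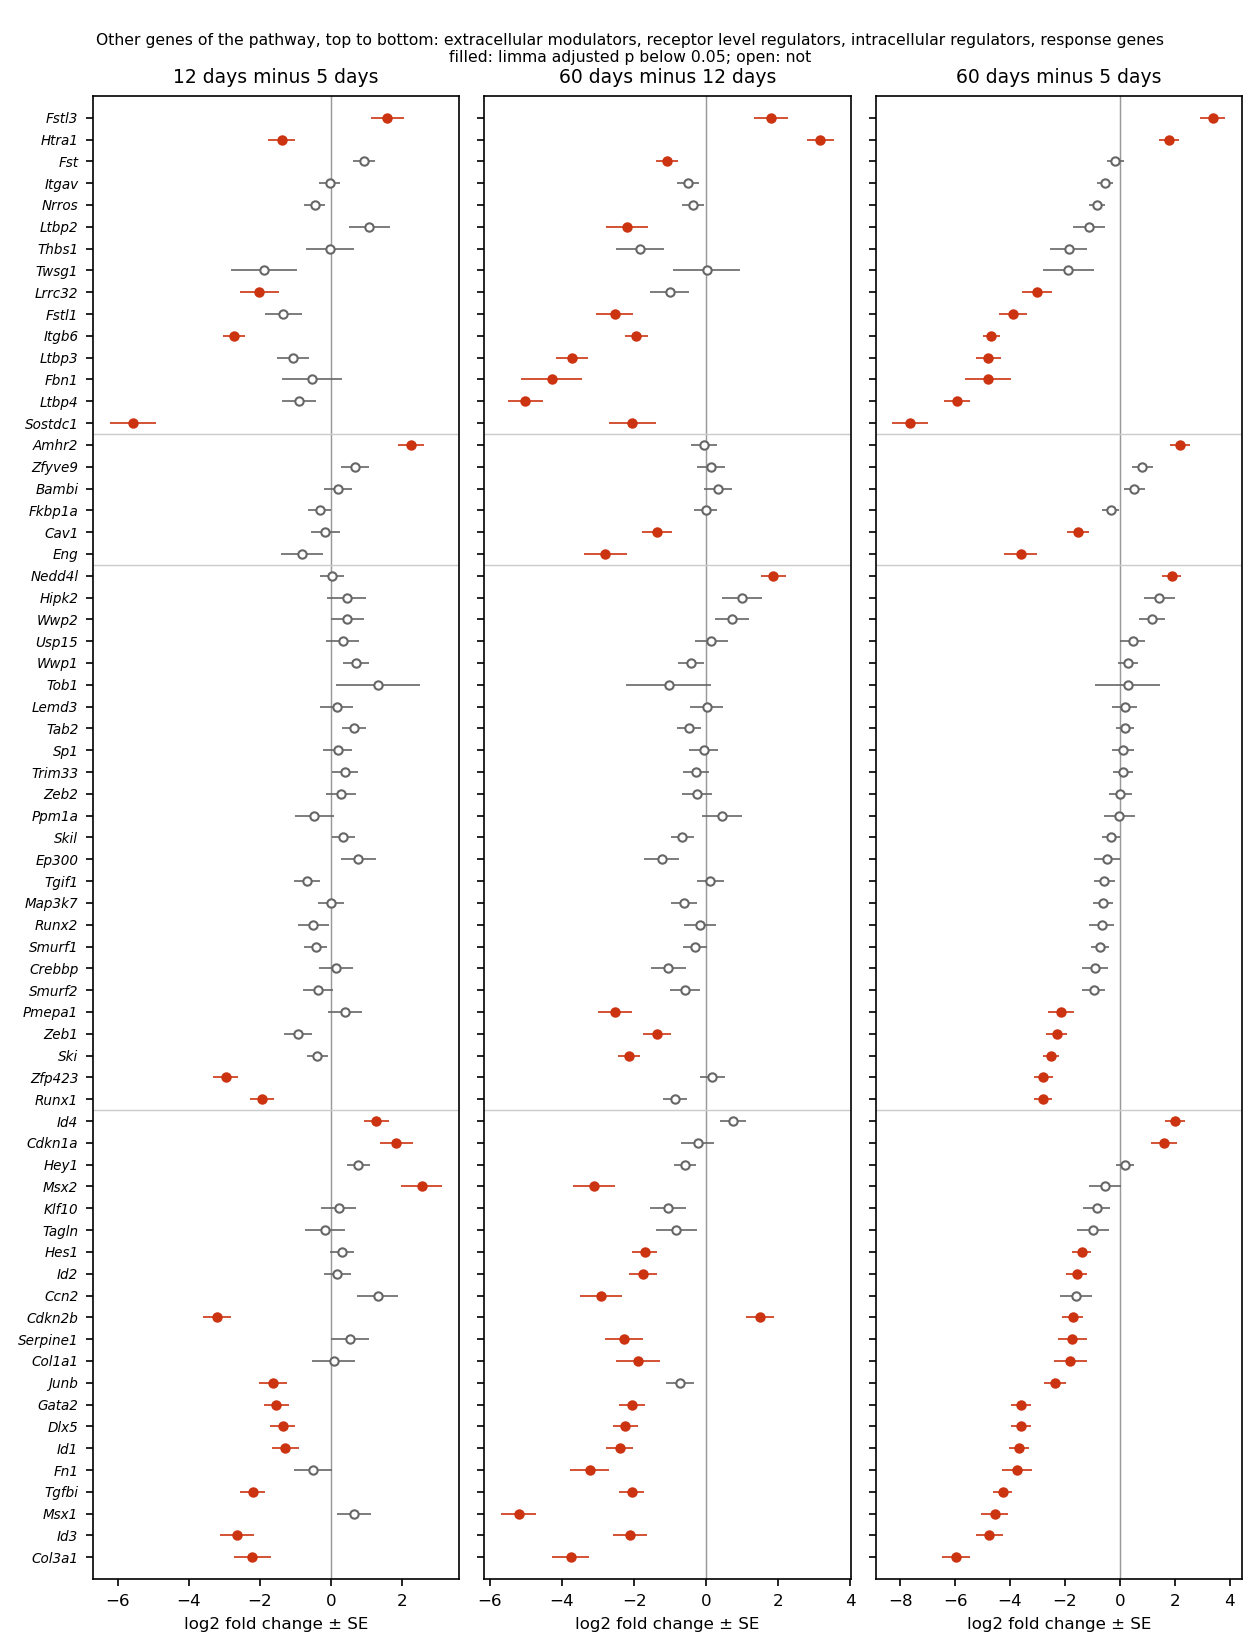
Log2 fold change with standard error (x axis) of 67 further genes of the pathway (y axis, grouped by role) in the 3 contrasts, later age minus earlier age; filled points were called. Filled points at 60 against 12 days are mostly left of 0, 27 lower and 4 higher, with Ltbp4 and Msx1 among the lowest and Htra1 the highest.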

How the data were processed

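Sertoli cell culture RNA was measured on 9 one-colour (Cy3) Agilent arrays, 3 each at 5, 12 and 60 days. Per the file headers, intensity values were made with Feature Extraction 9.5.3.1 on a G2505B scanner for replicate 1 and with 10.5.1.1 on a G2505C scanner for replicates 2 and 3, with background subtraction within each array and no scaling between arrays. The log2 values of the authors' deposited table equalled the log2 processed signal minus a constant per array for 99.6% to 99.7% of probes, within 0.01, with column medians of -3.48 to -3.18. Per the labels, the replicates carry numbers, and the file headers put each number on a slide of its own.

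Processed signals were taken to log2 minus each array's 75th percentile, without 254 probes of poor quality. Probes well above background on 2 of the 3 arrays of an age were kept, 26599 in all, and the probe of the highest mean stood for a gene. The 3 ages were fitted together with limma 3.58.1 (R 4.3.3), 2-sided, with Benjamini-Hochberg adjustment, and called at an adjusted p under 0.05. The fit was tested on simulated data. Where no array of an age was well above background, a fold was given as at least the ratio of the brighter age's mean to the detection limit of the dimmer age's arrays. Such a bound holds only for processed signals on the 75th percentile scale. Genes were named through RefSeq accessions for 11103 probes, symbols for 5613 and older symbols for 3735, and 20561 kept the name in the files. Mstn and Tsc22d1 stand in the files under the older symbols Gdf8 and Tgfb1i4.

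The members and gene lists were chosen with earlier results of these data known. By rule, called members are given per array, other tested members by their range and the rest by name, except 1 that is not reported here; further pathway genes were picked from their list for the text after values were seen. Same-numbered arrays deviated together from the means of their ages (r of 0.181 to 0.601 for the 9 pairs of the same number and -0.514 to 0.094 for the 18 others), so the numbers pair the arrays, and a fit with the replicate number as a block was an alternative. Others were the scaling (median, spike-ins, quantile), normexp with an offset of 50, the filter, the choice of probe, the authors' table, the variance prior, the 6 arrays of the ages compared, and leaving out each array or replicate. Planned normexp on mean spot signals covered replicates 1 and 3 only, since the files used for replicate 2 hold no such column; normexp on median spot signals, for all 9 arrays, was added after seeing the data. The number of arrays limits the precision.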

Additional observations from a re-analysis of the deposited data

How the results depend on the processing

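The calls rested on 3 arrays per age, and 10 of the 41 calls of members held under every alternative that gave a value for them, 25 for Acvrl1, Gdf11, Tgfb2 and Chrd and 24 for Bmp3, Bmp4 and Gdf10, which the filter on all arrays leaves out: Acvrl1, Gdf11 and Tgfb2 at 60 against 5 days, Gdf10 at 60 against 12 days, and Bmp3, Bmp4 and Chrd at 60 days against both younger ages. With normexp on replicates 1 and 3, 0 members were called at 12 against 5 days by limma (10 of 39 had an unadjusted p under 0.05, and normexp on all 9 arrays, added after seeing the data, called 6), against 7 in the fit reported; it called 6 at 60 against 12 days, against 13, and 7 at 60 against 5 days and 7 in the F-test, against 21 each. Over the whole array, normexp on replicates 1 and 3 called 433, 1552 and 3126 of 20882 genes in the 3 contrasts, and 2572 in the F-test. On the spike-in scale the member counts were 7, 5 and 12 in the 3 contrasts, Gdf15 at 12 against 5 days turned to -0.015 (adjusted p = 0.99) and Id4 at 12 against 5 days to -0.036 (adjusted p = 0.975). Over the whole array that scale called 90 genes higher and 2200 lower at 12 against 5 days (1376 and 1420 on the 75th percentile scale), 2614 and 381 at 60 against 12 days (2751 and 2932), and 1629 and 2456 at 60 against 5 days (3884 and 4058). Without a filter 4 of 52 members were called at 12 against 5 days, beside 2350 of 35170 genes. With only genes well above background on all arrays, where 24 members could be tested, 7 were called at 60 against 12 days, 12 at 60 against 5 days and 13 in the F-test. Of the 14622 genes tested in that setting, 3247, 4474 and 4681 were called. Leaving out arrays gave 1 to 7 calls at 12 against 5 days, 9 to 13 at 60 against 12 days, 13 to 23 at 60 against 5 days and 12 to 21 in the F-test, with the lowest counts without replicate 2. With the replicate block 9, 16 and 27 members were called and 28 in the F-test, beside 3977, 7684, 9977 and 10618 of all 22455 genes. All 41 calls were kept and no call was lost. Apart from the loss of arrays and of tested genes, the cause of these differences was not tested.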
